A study of Mus musculus with 2 samples.

Results

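Numbered Zfp genes were placed on a map of chromatin loops and contact domains from HPC5 cells, a mouse haematopoietic progenitor line derived from bone marrow. The genes were taken by symbol, as the autosomal protein-coding genes of the RefSeq annotation of mm10 whose symbol is Zfp followed by digits only. The rule gave 360 genes of 20558. A gene was called clustered where another of the 360 lay within 100 kb, measured between the nearest ends of the genes, and single otherwise, which made 208 genes clustered and 152 single. The family was selected on its positions against the loop anchors and domains of these lists, and a loop of 1.96 Mb that ends at Zfp982 on chromosome 4 was chosen by its span, so these values are given as a description, with no test.

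The map came from Hi-C, a count of ligations between DNA pieces that are neighbours in nuclear space, in 2 samples of this line, labelled replicates 1 and 2. Both carry the genotype Etv6+/+, which is wild type for Etv6, with no treatment named beyond the assay, and both were fixed with 2% formaldehyde for 10 min. The labels name no separate cultures, so a difference between the replicates may be technical, and with 1 group there was no contrast of conditions to test. Loop and domain lists hold no expression or contact totals, so the identity of the cells could not be checked against marker genes and the depth is unknown.

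Most Zfp genes encode proteins with a row of C2H2 zinc fingers, small folds that each hold a zinc ion and read a few bases of DNA. Many of them also carry a KRAB domain, which binds Trim28 (KAP1), and Trim28 brings in the methyltransferase Setdb1 and HP1 proteins to form silent chromatin, above all over transposable elements. In the mouse these KRAB zinc finger genes lie in tandem clusters that grew by repeated duplication, and neighbours in a cluster often resemble each other in sequence. The symbol also covers genes of other kinds, such as the mRNA-binding CCCH protein gene Zfp36, so not every gene counted here belongs to the KRAB family.

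Promoter sequences matched 301 of the 360 genes in RefSeq (GRCm38.p6, which is mm10). Shown first are the 250 bases before the start site of Zfp982, at the long loop, and of 3 single genes at loops found in both replicates. They are written 5′ to 3′ on the strand of the gene, with each CpG in capitals.
Zfp982, chr4:147442864-147443113, plus strand: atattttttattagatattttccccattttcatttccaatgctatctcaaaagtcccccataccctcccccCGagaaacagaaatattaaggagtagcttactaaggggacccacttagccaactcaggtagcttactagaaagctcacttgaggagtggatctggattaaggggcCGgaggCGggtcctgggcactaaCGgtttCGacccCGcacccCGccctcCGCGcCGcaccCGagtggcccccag
Zfp184, chr13:21944844-21945093, plus strand: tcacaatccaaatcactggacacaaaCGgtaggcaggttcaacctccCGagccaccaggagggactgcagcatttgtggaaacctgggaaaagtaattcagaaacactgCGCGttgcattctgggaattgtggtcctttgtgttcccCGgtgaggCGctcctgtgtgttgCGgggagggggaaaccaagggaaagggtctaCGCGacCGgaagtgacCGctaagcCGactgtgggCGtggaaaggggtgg
Zfp91, chr19:12796124-12796373, minus strand: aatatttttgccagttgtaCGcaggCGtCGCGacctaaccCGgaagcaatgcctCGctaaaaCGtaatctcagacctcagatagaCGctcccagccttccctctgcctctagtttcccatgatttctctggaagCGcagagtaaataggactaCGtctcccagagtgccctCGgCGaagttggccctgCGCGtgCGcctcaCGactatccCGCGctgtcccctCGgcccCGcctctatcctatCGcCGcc
Zfp3, chr11:70764197-70764446, plus strand: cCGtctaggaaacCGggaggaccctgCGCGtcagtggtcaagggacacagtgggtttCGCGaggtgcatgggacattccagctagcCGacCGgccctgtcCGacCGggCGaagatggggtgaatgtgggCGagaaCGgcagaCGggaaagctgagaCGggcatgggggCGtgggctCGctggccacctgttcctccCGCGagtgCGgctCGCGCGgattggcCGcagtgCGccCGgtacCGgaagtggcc
These windows held 11 CpGs for Zfp982, 13 for Zfp184, 22 for Zfp91 and 27 for Zfp3. The start sites of Zfp91 and Zfp3 lay inside the replicate 1 anchor of their shared loop. The start of Zfp982 lay outside its anchor, which held the far end of the gene, and the start of Zfp184 lay in an anchor of another loop, of replicate 2.

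The second pair comes from the region that the 1.96 Mb loop spans and was chosen after its values were seen. Zfp600 lies within the span and Zfp979 lies to its right, with the left ends of the 2 genes 1455 kb apart. Capitals here mark the bases that differ in an alignment of the windows, including bases that 1 window has and the other lacks.
Zfp600, chr4:146156577-146156826, plus strand: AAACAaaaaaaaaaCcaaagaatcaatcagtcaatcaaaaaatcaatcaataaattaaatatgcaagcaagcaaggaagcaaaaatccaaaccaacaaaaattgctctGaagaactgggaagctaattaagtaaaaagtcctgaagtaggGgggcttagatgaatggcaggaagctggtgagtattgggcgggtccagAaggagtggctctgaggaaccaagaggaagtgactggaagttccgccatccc
Zfp979, chr4:147642509-147642758, minus strand: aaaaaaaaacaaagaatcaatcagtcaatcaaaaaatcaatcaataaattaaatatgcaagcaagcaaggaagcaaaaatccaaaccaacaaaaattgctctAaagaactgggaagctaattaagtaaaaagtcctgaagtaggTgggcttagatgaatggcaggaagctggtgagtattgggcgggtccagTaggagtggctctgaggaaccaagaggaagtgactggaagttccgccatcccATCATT
Of 256 aligned positions 241 were the same, or 94.1%, with 3 substitutions and 6 unpaired bases in each window. Windows this alike can give short reads that match both places, and how such reads were treated is not given in the sources used here.

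A loop is listed as 2 anchors, which are bins of 5, 10 or 25 kb, and a gene was counted at an anchor where either of its ends lay in it. Ends of numbered Zfp genes lay at loop anchors about as often as those of other genes when both replicates were counted together. Under the medium setting, the longer of 2 deposited loop lists per replicate, 81 of the 360 had an end in an anchor of either replicate, or 22.5% (95% Wilson interval 18.5 to 27.1%). Among all autosomal protein-coding genes the share was 23.1%. The clustered genes stood at 21.2% (44 of 208, interval 16.2 to 27.2%) and the single genes at 24.3% (37 of 152, interval 18.2 to 31.7%), so the intervals overlap over most of their width. Where any part of the gene body could lie in the anchor, clustered genes stood at 22.6% (17.4 to 28.7%), single genes at 32.9% (25.9 to 40.7%) and all genes at 30.7%. Intervals cover counting error only, and neighbouring genes can share an anchor, so they are too narrow if anything.

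The replicates gave different pictures of the clusters. In replicate 1, with 1249 autosomal loops, 16 of 360 genes had an end in an anchor, or 4.44% (2.75 to 7.1%), beside 6.86% of all genes. Of the clustered genes 5 did (2.4%, interval 1.03 to 5.5%), and of the single genes 11 did (7.24%, interval 4.09 to 12.5%). In replicate 2, with 5590 autosomal loops, 71 genes did, or 19.7% (15.9 to 24.1%), beside 20.3% of all genes. There the clustered genes stood at 19.2% (40 genes, interval 14.5 to 25.1%) and the single genes at 20.4% (31 genes, interval 14.8 to 27.5%). The share of all genes thus lay above the interval of the clustered genes in replicate 1 and inside it in replicate 2. The length of the lists differs with the replicate, and its part in the lower clustered share of replicate 1 was not tested.

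Loops found in both replicates are those whose anchor midpoints lay within 20 kb of each other at both ends. Ends of 16 of the 360 genes lay in an anchor of such a loop in either replicate, or 4.44% (2.75 to 7.1%), beside 6.00% of all genes. They comprised 5 clustered genes (2.4%) and 11 single genes (7.24%). Another count took genes with an end in an anchor of each replicate, whether of the same loop or of different loops. It gave 6 genes, or 1.67% (0.766 to 3.59%), beside 4.06% of all genes. The clustered gene among these 6 was Zfp982, and the single ones were Zfp184, Zfp3, Zfp661, Zfp691 and Zfp930.

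**Figure D1:**
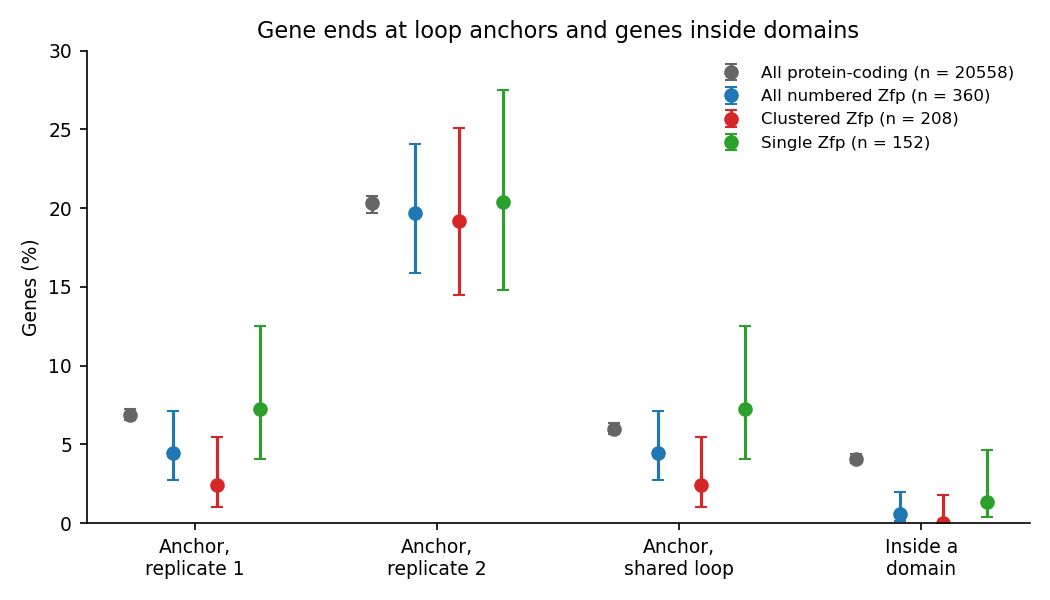
Share of genes (%, vertical axis) with an end in a loop anchor of replicate 1, of replicate 2 or of a loop found in both, and share of genes wholly inside a contact domain, for all 20558 autosomal protein-coding genes, all 360 numbered Zfp genes, the 208 clustered and the 152 single ones. Points are shares and bars are 95% Wilson intervals; the 4 sets lie near 20% in replicate 2, while the clustered genes lie lowest in the other 3 groups.

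Other zinc finger families and a large tandem family gave a scale for these shares, with either replicate's anchors. Ends of Zbtb genes, whose proteins pair zinc fingers with a BTB domain, were at an anchor for 11 of 40, and those of Klf genes, Krüppel-like transcription factors, for 8 of 16. Of the Zscan genes 3 of 16 were at an anchor, of the Zkscan genes 2 of 11, and of Zfp genes with letters after the digits 7 of 28. Olfactory and vomeronasal receptor genes, which also lie in tandem clusters, were at an anchor for 37 of 1452, or 2.55% (1.85 to 3.49%). Clustered numbered Zfp genes, at 21.2%, lay above that interval.

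Distances to anchors were then compared. In replicate 1 the median distance from the nearer gene end to the nearest anchor was 1248 kb for clustered genes, 515 kb for single genes and 370 kb for all genes. In replicate 2 the medians were 35.3 kb, 21.6 kb and 27.3 kb. Counted once per cluster, from the member nearest to an anchor, the median over the 50 clusters was 874 kb in replicate 1 and 3.48 kb in replicate 2. By the medians over genes, clustered genes were the farthest of these sets from anchors in both replicates, with a smaller gap in replicate 2. The value per cluster takes the nearest of several genes, so it is small by construction, and it has no background beside it. Replicate 2 had 4.29 anchors per Mb of autosome and replicate 1 had 1.01. Within the 8.34 Mb that the clusters cover the densities were 4.91 per Mb (41 anchors) and 0.479 per Mb (4 anchors). The cluster density therefore stood above the autosomal density in replicate 2 and below it in replicate 1, where it rests on 4 anchors.

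**Figure D2:**
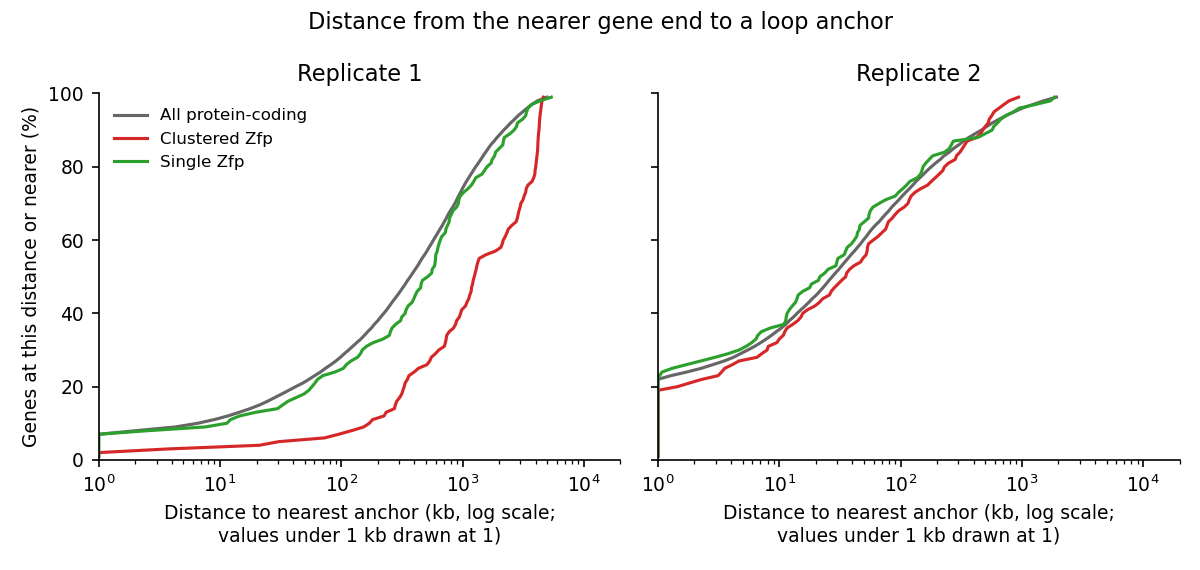
Cumulative share of genes (%, vertical axis) by distance from the nearer gene end to the nearest loop anchor (kb, log scale, values under 1 kb drawn at 1) in replicate 1 (left) and replicate 2 (right), for all protein-coding, clustered Zfp and single Zfp genes. In replicate 1 the clustered genes run to the right of the other lines, with a median of 1248 kb against 370 kb for all genes, and in replicate 2 the lines lie close together.

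The genes were spread unevenly over the 19 autosomes. Chromosome 7 held 90, of which 73 were clustered and 23 were at an anchor. Chromosome 17 held 41, with 9 at an anchor, chromosome 13 held 32, with 3, chromosome 4 held 27, with 5, and chromosome 8 held 25, with 11. The share of all genes at an anchor was not counted per chromosome, so these counts have no background beside them. The 50 clusters comprised 21 pairs and 15 clusters of 5 or more genes, and those 15 held 120 genes. The distance limit fell between Zfp605 and Zfp932 on chromosome 5, 97.8 kb apart and counted as clustered, and Zfp715 and Zfp936 on chromosome 7, 104 kb apart and counted as single. None of these 4 genes had an end at an anchor.

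The 3 clusters with the most genes differed from each other. The cluster from Zfp84 to Zfp146 on chromosome 7 (29768552 to 30169775, 401 kb) held 15 of the genes and no other protein-coding gene. Ends of 7 of its genes lay in replicate 2 anchors, those of Zfp84, Zfp940, Zfp420, Zfp27, Zfp383, Zfp260 and Zfp382, and none lay in a replicate 1 anchor. It had 5 anchors of replicate 2 within it and 2 loops with both anchors inside. The cluster from Zfp712 to Zfp748 on chromosome 13 (67038594 to 67553152, 515 kb) held 14 of the genes and 4 other genes, with no anchor of either replicate inside. The cluster from Zfp677 to Zfp943 on chromosome 17 (21383707 to 21994366, 611 kb) held 13 of the genes, with 1 anchor of replicate 2 inside and none of the 13 at an anchor. So the 3 longest gene rows ranged from 7 of 15 genes at an anchor to 0 of 14 and 0 of 13. Over all clusters, 26 of 50 had no gene at an anchor, and of the 15 clusters of 5 or more genes 5 had none. Larger clusters have more gene ends to count, and no runs of other genes were counted beside them.

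**Figure D3:**
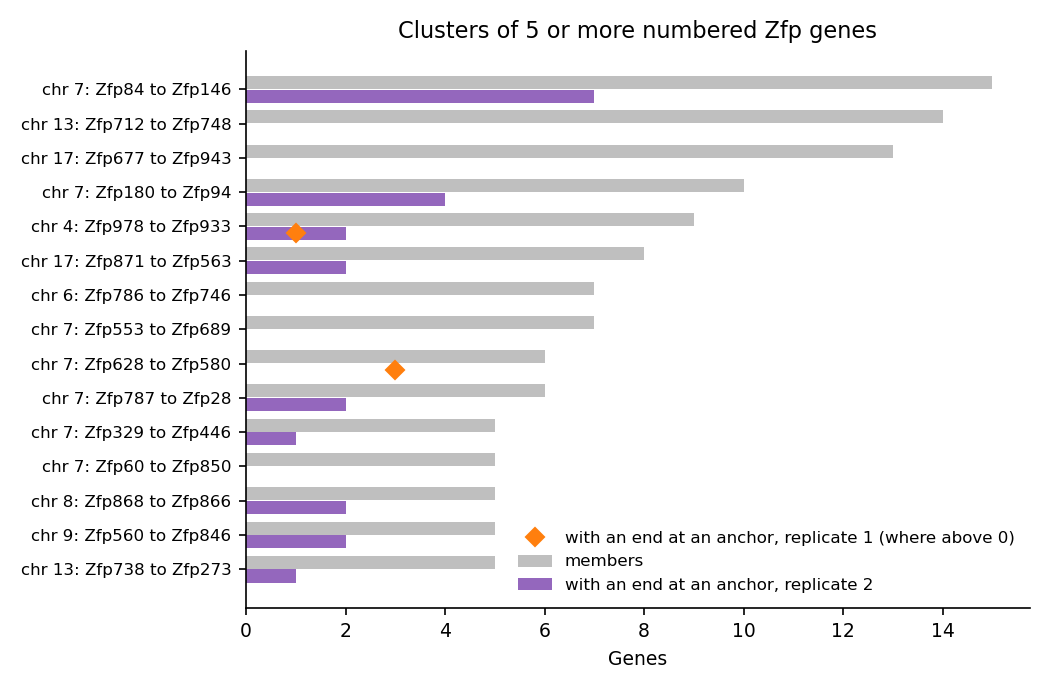
Number of numbered Zfp genes (grey bars) and of those with an end at a replicate 2 anchor (purple bars) or a replicate 1 anchor (orange diamonds, where above 0) in the 15 clusters of 5 or more genes, named by their first and last gene. The chromosome 7 cluster Zfp84 to Zfp146 has 7 of 15 genes at replicate 2 anchors, and the next 2 clusters by size have none.

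In all, 79 loops had an end of a numbered Zfp gene in an anchor, 14 in replicate 1 and 65 in replicate 2. Of the 14 in replicate 1, 13 were found in replicate 2, and of the 65 in replicate 2, 6 were found in replicate 1. Their 80 distinct anchors held 1 of the genes in 69 cases, 2 in 10 and 3 in 1. The anchor with 3 lay in a cluster on chromosome 7 and held ends of Zfp865, Zfp784 and Zfp580. The median span was 100 kb in replicate 1 and 125 kb in replicate 2, beside 150 kb for all autosomal loops of each replicate. Each loop carries a whole number tagged n, which the files do not define and which is larger for wider anchors. On 25 kb anchors of replicate 2 the median n was 65 over the 41 loops at these genes (range 27 to 181) and 60 over all 2296 loops of that width.

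The loop with the highest n of any loop on 25 kb anchors in replicate 2 was at Zfp800, a gene named here after its value was seen. Its anchors were 28250001 to 28274999 and 28375001 to 28399999 on chromosome 6, and its span was 125 kb, with n = 181 and 0 of 2296 loops above it. The right anchor held the start site of Zfp800. The left anchor held no gene end but lay within the body of Zfp800 itself (28210548 to 28398033). Its loop had no partner in replicate 1, whose nearest anchor lay 2802 kb away, and replicate 1 listed 0 loops within 500 kb of the gene where replicate 2 listed 4. The loop with the highest n at these genes was therefore listed in 1 replicate only.

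**Figure D4:**
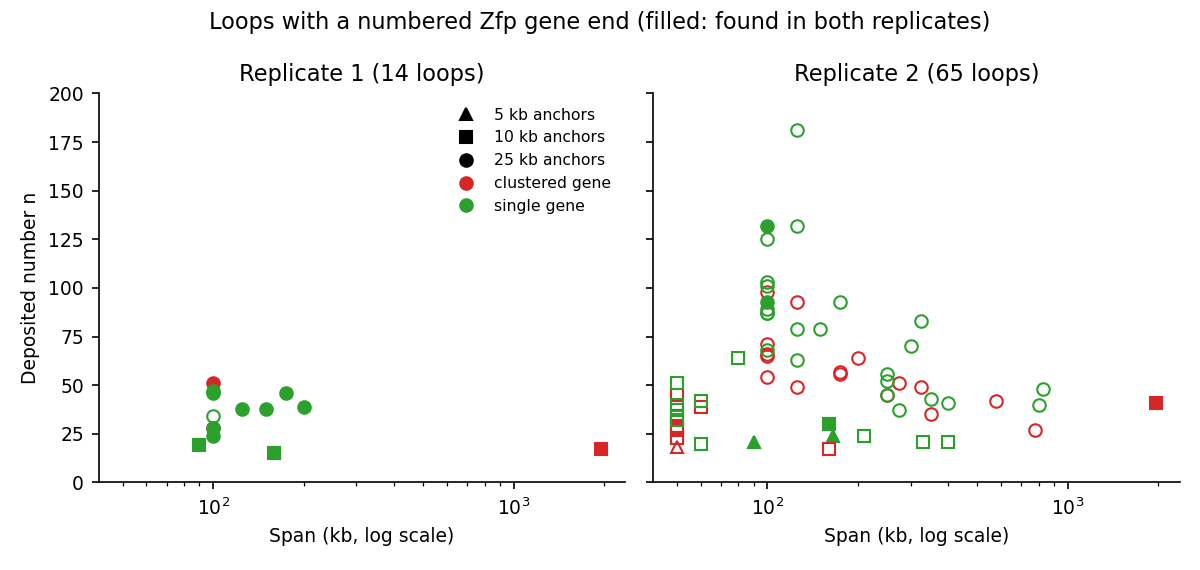
Deposited number n (vertical axis) against span (kb, log scale) of the 14 loops of replicate 1 (left) and the 65 loops of replicate 2 (right) with an end of a numbered Zfp gene in an anchor. Marker shape gives the anchor width, colour gives clustered or single genes, and filled markers are loops found in both replicates; the loop at Zfp800 stands highest with n = 181 and the 1.96 Mb loop at Zfp982 lies farthest to the right in both panels.

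At the start sites the picture was close to that of other genes. Of 68 numbered Zfp genes at an anchor with a start site in the table, 48 had that start site in the anchor, or 70.6% (58.9 to 80.1%). Among all 3692 such genes at an anchor the share was 63.8% (62.2 to 65.3%). The share was 70.7% for clustered genes (29 of 41) and 70.4% for single genes (19 of 27). Among genes with the start site in the anchor were Zfp281, a regulator of pluripotent cells, Zfp318, needed for IgD expression in B cells, Zfp598, a ubiquitin ligase for collided ribosomes, and Zfp809, a KRAB protein that silences retroviruses in embryonic cells. Of these, Zfp281 and Zfp598 were chosen after their values were seen.

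Loops of both replicates at single genes spanned 90 to 230 kb. At Zfp184 on chromosome 13 the same 25 kb anchors, 21850001 to 21874999 and 21950001 to 21974999, were listed in both replicates, with n = 46 in replicate 1 and n = 132 in replicate 2. Zfp184 also had an 80 kb loop of replicate 2 on 10 kb anchors, to 22020001 to 22029999, with n = 64, a value exceeded by 6 of 2320 loops of that width. At Zfp661 on chromosome 2 the same anchors 100 kb apart were listed in both, with n = 28 and n = 93, and the other anchor held an end of Kcnip3, a calcium-binding protein gene. Both genes thus had identical anchors and a higher n in replicate 2, where the median n over all loops on 25 kb anchors was 60, beside 31 in replicate 1. Zfp691 on chromosome 4 had a loop of 160 kb in replicate 1 (n = 15) and 165 kb in replicate 2 (n = 24), with an end of the gene in the anchor each time. Zfp930 on chromosome 8 had a loop of 90 kb in both (n = 19 and n = 21), whose left anchor held an end of the proton pump gene Atp6v1b2 in replicate 1 but not in replicate 2, where the bin was 5 kb.

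At the other 11 genes of shared loops the gene end lay in the anchor of 1 replicate only, and the bins of the other replicate had another width. In replicate 1 these were Zfp365, Zfp286, Zfp3, Zfp386, Zfp654, Zfp959, Zfp91 and the trio Zfp580, Zfp784 and Zfp865, all on 25 kb anchors, with partners on 5 or 10 kb anchors in replicate 2. In replicate 2 it was Zfp1, on 10 kb anchors 160 kb apart, with a partner of 150 kb in replicate 1. The loop of Zfp91, a ubiquitin ligase of the non-canonical NF-kB pathway, spanned 200 kb to an anchor with ends of Fam111a and Gm4952 (n = 39 in replicate 1) and was listed as 230 kb in replicate 2 (n = 22). The loop of Zfp386 reached Wdr60, 150 kb away, in both lists (n = 38 and n = 26). The loop of Zfp654 reached 4930453N24Rik, 100 kb away, in both lists (n = 47 and n = 29). The loop of Zfp286 had n = 51, exceeded by 35 of 1048 loops of its width in replicate 1, and no gene end at its other anchor.

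Loops at numbered Zfp genes were then sorted by what lay at the other anchor. Of the 14 loops in replicate 1, 0 had another of these genes at the other anchor, 10 had an end of another gene and 4 had no gene end. Of the 65 in replicate 2, 6 had another of these genes, 26 another gene and 33 none. The 6 were 5 of the 27 loops at clustered genes and 1 of the 38 at single genes. Genes counted as another gene include Zfp genes with letters after the digits. For all loops with a gene end, 270 of 828 in replicate 1 and 852 of 3061 in replicate 2 had gene ends at both anchors. That counts pairs of any genes, and no expected number of pairs of numbered Zfp genes was worked out. The 6 joining loops were all of replicate 2 and had no partner in replicate 1. Zfp945 was joined to Zfp40 on chromosome 17 over 325 kb, with n = 83, and these are the only single genes among them. On chromosome 7, Zfp78 was joined to Zfp773 over 775 kb (n = 27), Zfp606 to Zfp110 over 350 kb (n = 35), and Zfp180 to Zfp235 over 50 kb (n = 28). Within the Zfp84 to Zfp146 cluster an anchor with ends of Zfp940 and Zfp420 was joined to one with ends of Zfp27 and Zfp383, 50 kb apart (n = 34). On chromosome 8, Zfp868 was joined to Zfp963 over 100 kb (n = 66). The joins of Zfp78 with Zfp773 and of Zfp606 with Zfp110 linked different clusters, and the other 3 among clustered genes joined genes of the same cluster.

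Genes at more than 1 loop of replicate 2 numbered 9 of 360, or 2.5% (1.32 to 4.68%), beside 3.78% of all genes, and 7 of the 9 were single. Zfp608 on chromosome 18 had 3 loops, of 125, 150 and 400 kb, none of which had a gene end at the other anchor. Zfp3 had 2 loops in replicate 2, 1 of 350 kb to Pelp1, a nuclear receptor coregulator gene, and 1 of 50 kb, and neither was the loop it had in replicate 1. Zfp318 had loops of 100 kb (n = 125), to an anchor with ends of Tjap1 and Dlk2, and of 50 kb (n = 37). Zfp469 had a loop of 275 kb and one of 60 kb to Zfpm1, which encodes the GATA1 cofactor FOG1. Zfp930 had its shared loop and one of 400 kb, Zfp945 one of 50 kb beside that to Zfp40, and Zfp184 the 2 given above. The clustered genes with 2 loops were Zfp78, with loops of 575 and 775 kb from 1 anchor, and Zfp809, with loops of 160 kb (n = 17) and 125 kb (n = 93), the second also holding an end of its neighbour Zfp599.

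The loop at Zfp982 was listed in the medium and the stricter high setting of both replicates, with the same 10 kb anchors, 145550001 to 145559999 and 147510001 to 147519999 on chromosome 4. Its n was 17 in replicate 1, the median for 201 loops of that width, with a value tagged qBL, also undefined, of 1.46e-05. In replicate 2 its n was 41, exceeded by 319 of 2320 loops of that width, whose median was 30. It was the longest autosomal loop of both lists, and the next spanned 1475 kb in replicate 1 and 1925 kb in replicate 2. Of the 18 loops of replicate 2 on 10 kb anchors that spanned 1000 kb or more, none had a higher n, and their median was 19.5.

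Zfp982 (147443114 to 147516064, plus strand, RefSeq gene 195531) is the last gene under this loop, and its far end lay in the right anchor. The left anchor held no protein-coding gene end. It lay 11.8 kb to the right of Zfp990 and 25.2 kb to the left of Gm13212. Between the anchors lay 10 of the numbered Zfp genes and 2 other genes, Gm13212 and Rex2. The 10 were Zfp980, the only single gene of them, Zfp987, Zfp600, Zfp992, Zfp981, Zfp993, Zfp978, Zfp991, Zfp988 and Zfp982 itself. None of the other 9 had an end in any anchor, and neither replicate listed another loop with an anchor inside the span or a loop over it. To the right of the loop the same run of genes went on with Zfp985, Zfp979, Zfp534, Zfp984 and Zfp933. Of these only Zfp984 was at an anchor, of a 50 kb loop of replicate 2 (n = 34) whose other anchor held ends of Miip and of Fv1, a retrovirus restriction gene. The right anchor thus fell inside a cluster of 9 genes, Zfp978 to Zfp933, with 4 genes of that cluster under the loop and 5 outside it.

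**Figure D5:**
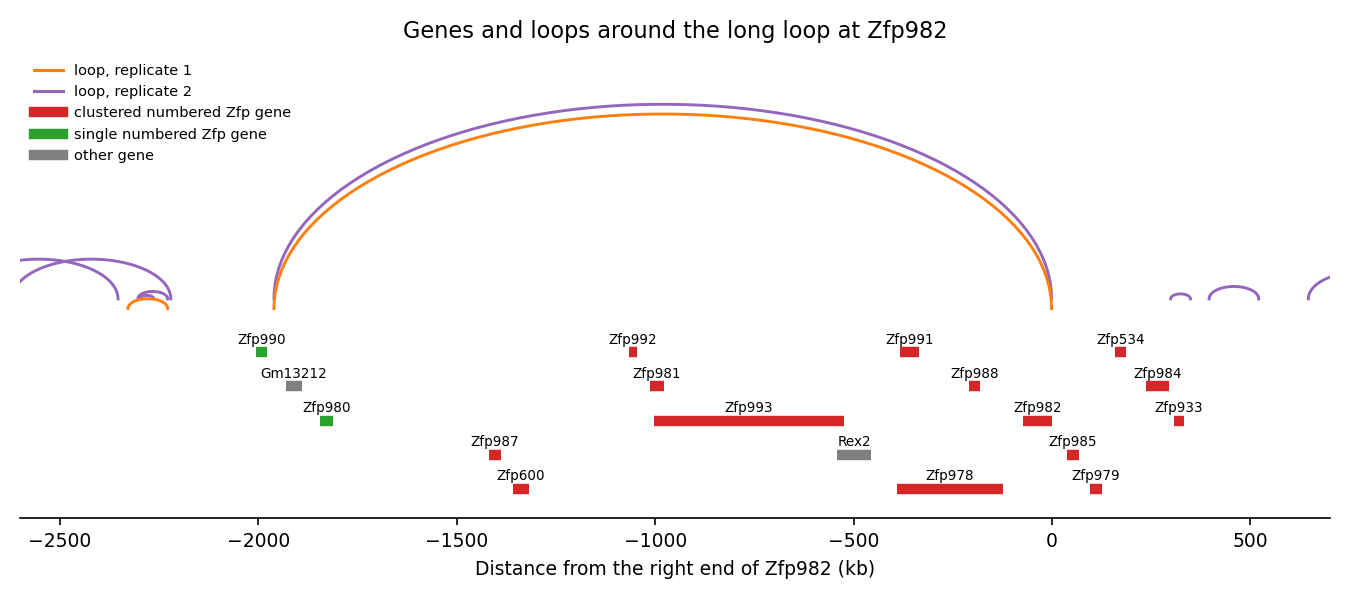
Genes (bars) and loops (arcs, orange for replicate 1 and purple for replicate 2) around the 1.96 Mb loop, by distance from the right end of Zfp982 (kb). The same loop is drawn for both replicates, 10 numbered Zfp genes and 2 other genes lie beneath it, and no other loop starts or ends inside it.

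Promoters in this region ranged from closely alike to about as alike as those of genes on different chromosomes. Over the whole 300-base window, which runs to 50 bases past the start site, Zfp600 and Zfp979 were 94.8% identical, Zfp980 and Zfp979 89.8%, and Zfp988 and Zfp534 89.8%, the 3 highest values. Other pairs were lower, such as Zfp981 and Zfp534 at 58.2% and Zfp988 and Zfp984 at 59.7%, which is below the highest value of 64.9% for genes of different chromosomes. The window of Zfp982 was 44.8 to 50.3% identical to those of the other 11 genes of the region with a promoter in the table. That is near the median of 49.6% for 3959 pairs of numbered Zfp genes on different chromosomes. Such values were not particular to Zfp982, as Zfp993 stood at 44.8 to 51.6% and Zfp933 at 47 to 52.2% against the rest of the region. Over all clusters, neighbouring genes were mostly about as alike as genes of different chromosomes, with a median of 50.6% over 134 pairs. But 10 of the 134 pairs reached 70% or more, led by Zfp456 and Zfp429 on chromosome 13 at 87.3% and Zfp747 and Zfp764 on chromosome 7 at 86.3%, and 0 of the 3959 pairs did. These pairs were chosen after their values were seen.

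Over the 301 genes with a promoter the window held a median of 13 CpGs (quartiles 8 and 20), beside 14 (quartiles 4 and 25) for 16457 genes of the table. No numbered Zfp gene lacked a CpG there, while 816 of the 16457 genes did. Clustered genes had a median of 11 and single genes of 17. Among all genes the median was 19 at an anchor and 12 elsewhere. Among the numbered Zfp genes it was 14 at an anchor (68 genes) and 13 elsewhere (233 genes).

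Short motifs were looked up on both strands of the same windows. The letters CCGGAAG, a core that ETS proteins such as ETV6 can bind, were in 69 of 301 windows of numbered Zfp genes, or 22.9% (18.5 to 28%), beside 12.3% of all 16457 windows. The share was 23.5% of those at an anchor and 22.7% of the rest. Of the promoters printed above, those of Zfp184, Zfp91 and Zfp3 held it. The letters AGGNGGC, part of the motif of the loop anchor protein CTCF, were in 25.6% (21 to 30.8%), beside 33.2% of all windows. Among clustered genes they were in 5 of 41 at an anchor and 38 of 139 elsewhere, and among single genes in 8 of 27 and 26 of 94. Among all genes the shares were 38% at an anchor and 31.8% elsewhere, and these splits were not tested. The letters AAGATGGC, a core of the YY1 motif, were in 5.65% (3.56 to 8.86%) beside 3.21%, and TATAAA was in 5.98% (3.82 to 9.25%) beside 13.5%. AAGATGGC was found in 6 of 41 clustered genes at an anchor and 1 of 139 clustered genes elsewhere, a split that was noticed after the counts were seen and not tested. Single genes went the other way, with 1 of 27 at an anchor and 9 of 94 elsewhere, and among all genes the shares were 4.04% and 2.98%. The last 3 letters of CCGGAAG are the first 3 of AAGATGGC, so matches of these can overlap, and a match describes letters and not binding.

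Contact domains are stretches whose parts touch each other more than they touch the outside. Only 2 of 360 numbered Zfp genes lay wholly inside one, or 0.556% (0.152 to 2%), beside 4.10% of all genes, and both were single. They were Zfp277, the only gene wholly inside a domain of 595 kb on chromosome 12 (40225001 to 40820000), and Zfp950. An end of Dock4 also lay in the domain of Zfp277. Zfp950 lay with 5 other whole genes in a domain of 510 kb on chromosome 19 (60815001 to 61325000). Genes with an end or more in a domain numbered 5, or 1.39% (0.595 to 3.21%), beside 5.63% of all genes. The 3 added ones, Zfp267, Zfp326 and Zfp469, lay across a domain edge. None of the 208 clustered genes touched a domain by either count, with an upper Wilson bound of 1.81%. That bound takes the genes as separate, but they lie in 50 clusters, whose neighbours can fall in or out of a domain together. It is therefore too low if anything. All 5 came from the 332 domains of replicate 2, which cover 5.31% of the autosomes, and replicate 1 listed 3 autosomal domains. A low share was not particular to these genes. Of olfactory and vomeronasal receptor genes 14 of 1452 lay wholly inside a domain (0.964%). Of Zscan and Zkscan genes 0 of 16 and 0 of 11 did, but these sets are too small to place, with upper bounds of 19.4% and 25.9%. With an end or more in a domain, Zscan genes stayed at 0 of 16 and Zkscan genes numbered 1 of 11. Zbtb genes (4 of 40), Klf genes (2 of 16) and Zfp genes with letters after the digits (2 of 28) had higher shares.

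Whole genes within the span of a loop gave no such gap between numbered Zfp genes and all genes. In replicate 1, 29 of 360 lay within a span, or 8.06% (5.67 to 11.3%), beside 9.50% of all genes, and in replicate 2 it was 125, or 34.7% (30 to 39.8%), beside 34.6%. Clustered genes stood at 6.73% and single genes at 9.87% in replicate 1, and at 37% and 31.6% in replicate 2, so their order differed between the replicates.

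The genes of the proteins that work with KRAB zinc finger proteins were taken from a list of 27 symbols, of which 24 matched an autosomal gene. Ends of 5 of the 24 lay at an anchor, or 20.8% (9.24 to 40.5%), close to the 23.1% of all genes. In replicate 2 they were Trim28, the corepressor itself, with a loop of 100 kb, Atf7ip, a partner of Setdb1, with 70 kb, the HP1 gene Cbx3 with 90 kb, and Morc2a, of the HUSH silencing pathway, with 100 kb. In replicate 1 it was Tasor, a HUSH subunit, with a loop of 225 kb that was also found in replicate 2. Ends of Setdb1, Cbx1, Cbx5, Chd4 and the DNA methyltransferase genes Dnmt1, Dnmt3a and Dnmt3b lay at no anchor. Among numbered Zfp genes with known roles in imprinting, Zfp57 lay 14.3 kb from an anchor of replicate 1 and 29.3 kb from one of replicate 2, and Zfp445 363 kb and 38.1 kb, and neither was at an anchor. These 2 were chosen after their values were seen.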

How the data were processed

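Hi-C of 2 HPC5 samples was processed by the authors. HiC-Pro 2.11.1 and the mm10 build are named per the submitters' processing notes, and what program called either kind of list was not given in the sources used here. The authors deposited coordinates, per replicate a medium and a high loop list and a domain list with 5 kb bins. Lists were called per replicate. The lists give no contact totals, so no depth or detection floor can be stated.

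Genes, start sites and promoters came from RefSeq tables of GRCm38.p6. Left out were 363 genes of scaffolds (113 protein-coding) and 7 numbered Zfp genes on X. Shares carry 95% Wilson intervals (statsmodels 0.14.6). Promoter identity came from global alignment (Biopython 1.88). The counting functions were tested on simulated data.

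The members, lists and motifs were chosen with earlier results of these data known, so no p-value is given. Genes named are those under the long loop, at shared loops, at 2 or more loops, joined to another numbered Zfp gene, nearest to the 100 kb limit, in the 3 largest clusters, and in or across a domain. Zfp800, Zfp281, Zfp598, Zfp57, Zfp445, Zfp747 and Zfp764 fall outside this rule, as do Zfp36, the genes that flank the long loop and Zfp599, named as background or neighbours. Planned counts of zinc fingers, KRAB boxes and protein identity were not analysed here. Alternatives were the high lists, anchor widths, distances to anchors, gene bodies, each replicate alone, other cluster distances and other tolerances for shared loops. Added after seeing the data were each replicate alone for the partner genes, and the mean over start sites.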

Additional observations from a re-analysis of the deposited data

How the results depend on the processing

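Each share moved with the lists used, and that of all genes moved with it. Of 68 alternatives 30 stayed close to the reported value and 38 moved. Close meant within its interval for shares, within a fixed ratio for counts of loops, and within the quartiles for CpGs. The order against all genes also turned. All numbered Zfp genes lay below all genes as reported and above them with 25 kb anchors alone, and single genes lay above all genes as reported and below them with the high lists and with ends within 10 kb. The share of numbered Zfp genes at an anchor was 8.06% with the high lists and again 8.06% with 5 and 10 kb anchors alone, 16.7% with 25 kb anchors alone, 4.44% with loops of both replicates alone, and 30.8% and 35.6% with ends within 5 and 10 kb. In that order (high lists, 5 and 10 kb anchors, 25 kb anchors, both replicates, within 5 kb, within 10 kb), clustered genes gave 7.69, 7.69, 13.9, 2.4, 29.3 and 34.6%, and all genes 9.84, 9.84, 16.4, 6, 31.4 and 37.4%. Single genes gave 8.55% with the high lists and with 5 and 10 kb anchors, 7.24% with loops of both replicates, and 32.9% and 36.8% within 5 and 10 kb. With gene bodies in place of ends single genes reached 32.9%, clustered genes 22.6% (17.4 to 28.7%) and all genes 30.7%, so the share of all genes lay above the clustered interval there. Counted per cluster, 48% of 50 clusters had a gene at an anchor. A cluster counts if any of its genes does, so this share cannot be set beside the shares per gene.

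Leaving out 1 replicate gave 4.44 to 19.7% for all numbered Zfp genes, 2.4 to 19.2% for clustered genes, 7.24 to 20.4% for single genes, 6.86 to 20.3% for all genes and 4.17 to 16.7% for the partner genes, the lower value in each case without replicate 2. It gave 0 to 0.556% inside a domain, beside 0.0438 to 4.09% of all genes, and 0 to 6 joining loops. Joining loops numbered 2 with the high lists and 13 with ends within 5 or 10 kb. With the gene end in the anchor of both replicates, 1.39% were at a shared loop, a count that was not made for all genes. Clustered genes lay below single genes in each of 14 settings, by 0.9 to 10.3 percentage points, but the high lists hold the same autosomal loops as the 5 and 10 kb anchors, so these settings are not separate. The 1.96 Mb loop was found in both replicates under each of its 4 alternatives. Its anchors are the same in both replicates and hold the gene end, so only the high lists could have lost it. The causes of the shifts above were not tested. No paired analysis was possible because the 2 replicates form 1 group.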
